A study of Mus musculus with 24 samples.

Results

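Ventral root nerve fibres were compared between 5 weeks (5 W) and 3 weeks (3 W) after birth. The comparison used the 6 arrays labelled efferent nerve (EN), 3 at each age, of the 24 arrays in the series. A probe was kept when the 3 arrays of either age all read it well above background, which left 33135 of 56605 gene probes for testing. Both groups were untreated C57BL/6 mice, and the fibres were those that leave the cord at L4-L6. The study describes 1 tube per group for the tissue of several animals, and also 3 independent experiments for each group. It states that both sexes were used equally. How the animals were divided among the arrays is not stated, so the arrays of a group were not tied to single animals. The p-values and SEs rest on the spread between arrays of the same group, pooled over all 24 arrays and not taken from these 6 alone. This spread may be partly technical. The remaining 18 arrays held the same root at P0 and 1 W and the afferent nerve (AN) fibres of the dorsal root at all 4 ages.

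A ventral root is a bundle of motor axons on their way from the spinal cord to muscle. Its RNA comes mostly from Schwann cells, the glia that wrap these axons in myelin, and from fibroblasts, blood vessels and resident immune cells, because the motor neuron cell bodies stay in the cord. Myelin is laid down quickly in the first weeks after birth, after which Schwann cells stop dividing and the sheath is maintained and thickened. The 10 tested Schwann cell markers, among them Sox10, had a mean log2 signal of 15.25 to 15.29 on the 3 W arrays and of 15.18 to 15.37 on the 5 W arrays. These markers are shared by ventral and dorsal roots, so their level speaks for nerve tissue and not for which root it came from. In such bulk samples, fewer cells of a type and less RNA per cell cannot be told apart.

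The arrays of the 2 ages differed in slide and in spread. All 3 arrays at 3 W were on a single slide, together with replicate 3 of 5 W, while replicates 1 and 2 of 5 W were on other slides scanned in other batches. The 3 W arrays correlated with each other at 0.994 to 0.995 over the tested probes and the 5 W arrays at 0.961 to 0.981. The median SD of a probe was 0.11 at 3 W and 0.26 at 5 W on the log2 scale. Between 57.0% and 68.6% of spots were well above background, and no spot was saturated. Replicate 2 of 5 W gave 9.13 for the Y-linked gene Eif2s3y, against 10.64 to 11.07 on the other 5 EN arrays.

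Of the 33135 probes, 860 (2.60%) were called at an adjusted p below 0.05 by limma, 550 (1.66%) higher and 310 (0.936%) lower at 5 W. These 860 probes included 352 gene symbols that rose and 236 that fell, and 378 of the probes changed by more than 2-fold. The median log2 change over all tested probes was -0.03. The rule of the study's methods, an unadjusted p below 0.05 with a fold above 2, selected 1132 probes (3.42%), 562 higher and 570 lower. With slide as a block in the fit, 1914 probes were called, 982 higher and 932 lower, and 544 of the 860 were among them. Within the one slide that held both ages, where 1 array of 5 W stood against 3 of 3 W and was assumed to vary like the other groups, 994 probes were called, 268 higher and 726 lower, and 159 of the 860 were among them. The number called ranged from 191 without EN_3W replicate 2 to 1515 without EN_5W replicate 3; it was 317 without EN_3W replicate 1, 444 without EN_3W replicate 3 and 285 without EN_5W replicate 2.

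The largest rises were in genes of several kinds. Mchr1, a receptor for melanin-concentrating hormone, gave log2 signals of 6.99, 5.80 and 6.91 at 3 W and 9.73, 10.29 and 9.26 at 5 W. The ages did not overlap, as the rule for naming the largest changes required, and the difference was 3.19 ± 0.41 (SE, n = 3 per age, adjusted p = 0.000372). Plk5, a member of the polo-like kinase family, rose from 12.29, 11.96 and 12.40 to 14.95, 15.90 and 15.14, a change of 3.12 ± 0.34 (adjusted p = 8.23e-05). Akr1b3, the aldose reductase that turns glucose into sorbitol, rose from 12.74, 11.88 and 12.54 to 14.96, 15.71 and 14.41, by 2.64 ± 0.31 (adjusted p = 0.00012). Within the slide that held both ages, these 3 rises were 2.69, 2.93 and 2.03, and all 3 were called with slide as a block.

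Spp1, which encodes the secreted phosphoprotein osteopontin and is also a marker of some motor neurons, gave 13.14, 13.00 and 13.28 at 3 W and 14.76, 16.16 and 15.35 at 5 W. Its 5 W arrays were spread over more than 1 log2 unit but all lay above the 3 W arrays, and the rise was 2.28 ± 0.56 (adjusted p = 0.0362). With slide as a block its call was lost (2.05, adjusted p = 0.0774). Rspo1, a secreted amplifier of Wnt signalling, rose by 2.02 ± 0.22 (adjusted p = 7.74e-05) from values of 11.77, 11.17 and 11.44 to 13.51, 13.69 and 13.25. Gzma, the granzyme A protease of cytotoxic lymphocytes, rose by 2.03 (adjusted p = 0.00521), with 7.66, 7.30 and 6.89 at 3 W and 9.25, 8.92 and 9.76 at 5 W. Arhgap27, a GTPase-activating protein, rose by 2.43 and Fam83d, a protein of the mitotic spindle, by 2.23. The other 2 of the 10 largest rises, H2-Aa and Cd74, belong to the antigen presentation genes described next. Malrd1 was above background at 5 W but on no array at 3 W, and was at least 2.73-fold higher at 5 W, set against the lowest signal that counted as above background on the 3 W arrays. On the same terms 1 of 2 probes of Fam169a was at least 5.05-fold higher and 1 of 2 probes of Fam189b at least 2.78-fold. The other probe of each gene was brighter, was above background on all 6 arrays and was not called, with differences of -0.38 for Fam169a and -0.15 for Fam189b, so the rise holds for 1 probe and not for the gene.

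**Figure D1:**
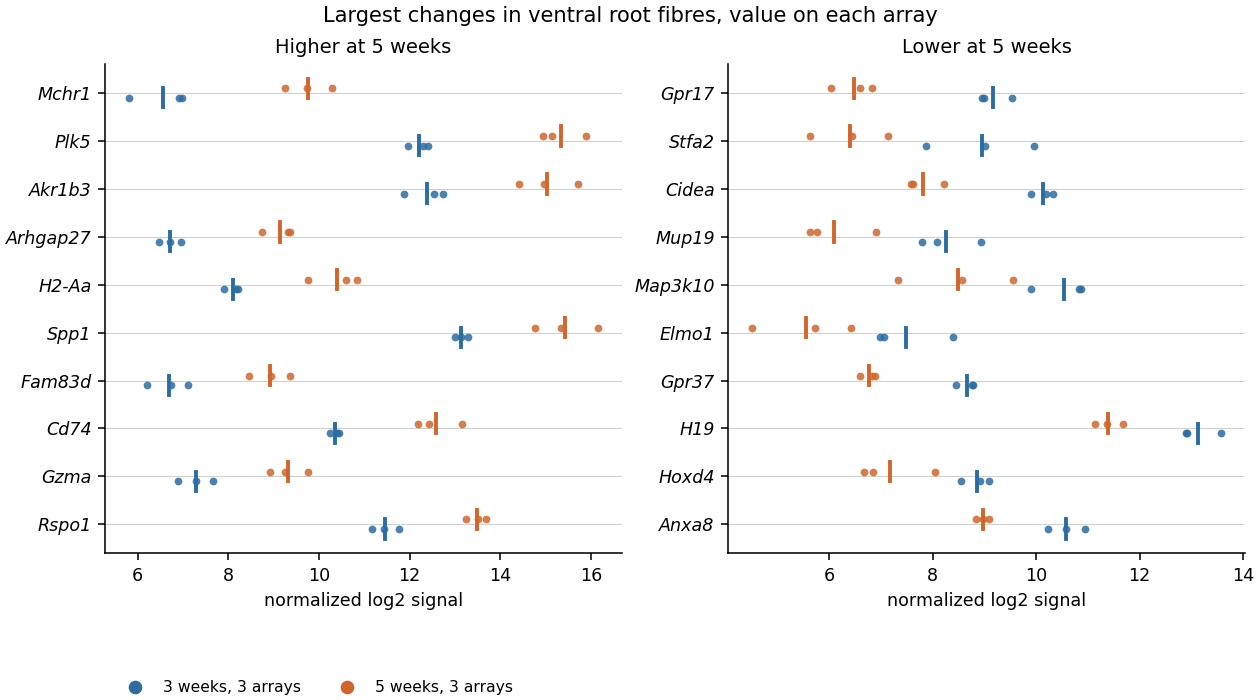
Normalized log2 signal of the 10 largest rises (left) and 10 largest falls (right) on each ventral root array, with 3 W in blue, 5 W in orange and a bar at each mean of 3 arrays. Genes were picked only if their ages did not overlap, and Mchr1 at the top left moves from 5.80-6.99 to 9.26-10.29.

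Of the antigen presentation genes, 4 of class II, H2-Aa, Cd74, H2-Ab1 and H2-Eb1, had the largest rises in their list. The list was chosen with earlier results of these data known. Major histocompatibility complex (MHC) class I molecules show peptides from inside the cell and sit on nearly all cells, with B2m as their shared light chain. Class II molecules show peptides taken up from outside, are carried mainly by macrophages, dendritic cells and B cells, and are assembled on the invariant chain Cd74. Of 18 tested members of the list, 8 were called higher and 0 lower, against 1.70% of all genes called higher. Their median log2 change was 0.93, beside -0.03 over one probe per gene, and 16 of the 18 were higher at 5 W without overlap of the ages, against 15.2% of all genes.

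Among the class II genes, H2-Aa, the alpha chain of the I-A molecule, whose probe lies at chr17:34421285-34421344 (mm9), gave 8.22, 7.90 and 8.17 at 3 W and 9.76, 10.84 and 10.59 at 5 W, a rise of 2.30 ± 0.45 (adjusted p = 0.0103). H2-Ab1, its beta chain, gave 11.86, 11.84 and 11.90 and then 13.17, 14.27 and 13.67, a rise of 1.83 ± 0.26 (adjusted p = 0.000789). H2-Eb1, the beta chain of I-E, gave 12.05, 11.79 and 11.93 and then 13.12, 14.12 and 13.83, a rise of 1.77 ± 0.25 (adjusted p = 0.000758). All 3 were lowest on replicate 1 and highest on replicate 2 among the 5 W arrays, and every 5 W array stood more than 1 log2 unit above every 3 W array. Cd74 followed the same order, from 10.44, 10.41 and 10.25 to 12.19, 13.15 and 12.43, and rose by 2.22 ± 0.27 (adjusted p = 0.000166). Ciita, the coactivator that switches on the class II genes, gave 7.07, 6.86 and 7.02 at 3 W and 7.75, 9.44 and 8.27 at 5 W, and its difference of 1.50 ± 0.51 did not pass (adjusted p = 0.128). Of 4 tested H2-Ab1 probes, 3 were called. The fourth gave 9.09 on replicate 3 of 5 W where its other 5 W arrays gave 13.06 and 14.11, and its difference was 0.56 (adjusted p = 0.739) and, within the slide that held both ages, -2.43. Not all class II genes were called: H2-DMa and H2-DMb1, subunits of the molecule that loads peptides, differed by 0.44 and 0.27 (adjusted p = 0.431 and 0.717).

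The 4 called class I members of the list rose by close to 1 on the log2 scale. B2m gave 15.05, 14.63 and 14.92 at 3 W and 15.73, 16.10 and 15.70 at 5 W, a rise of 0.98 ± 0.17 (adjusted p = 0.00461). H2-D1 rose by 0.97, H2-T23 by 0.94 and H2-K1 by 0.93, with adjusted p of 0.00243, 0.00372 and 0.01. The class I heavy chain genes are near-identical copies of each other, so a probe may read more than its own gene. Over all 27 tested symbols that begin with H2-, counted after their values were seen, 15 were called higher and 0 lower. Of all genes 1.70% were called higher. These symbols were matched by their letters alone, so not all need be MHC genes. Class I genes outside the list that were called included H2-Q5, which rose by 1.96 (adjusted p = 0.000435), H2-M2, by 1.25, and H2-M3, by 0.59. The proteasome and transporter genes that prepare class I peptides did not pass: Psmb9 differed by 0.79 (adjusted p = 0.228), Psmb8 by 0.62, Tap2 by 0.50 and Tap1 by 0.25. The smallest difference in the list was that of H2-Q4, at 0.02. With slide as a block 10 members were called and within the single slide 8, where H2-Aa rose by 2.49 and Cd74 by 2.06; with the 6 arrays fitted alone, 3 passed.

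**Figure D2:**
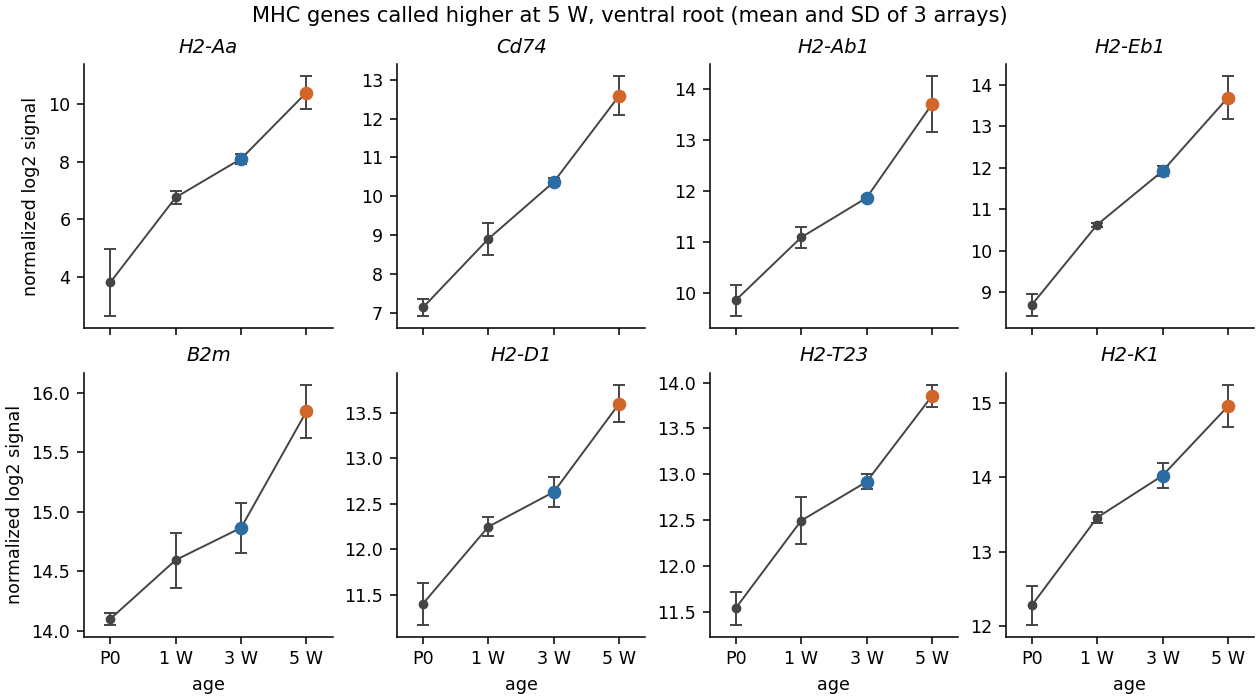
Mean normalized log2 signal (SD, 3 arrays) of the 8 MHC genes called higher at 5 W, in the ventral root at P0, 1 W, 3 W (blue) and 5 W (orange), each panel with its own axis. Every gene is highest at 5 W, and Cd74 runs from 7.13 at P0 through 8.90 and 10.37 to 12.59; H2-Aa at P0 was above background on 1 of 3 arrays.

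Class II and many proliferation genes carry a CCAAT box, written ATTGG on the other strand, close to their start. In class II genes it is the Y box, which sits in the sequence CTGATTGG. The stretches below are the 150 bases before the start of transcription from RefSeq (GRCm38.p6), for class II genes that rose and for cell cycle genes that fell, with every ATTGG or CCAAT in capitals. They are shown so that the elements the groups share can be seen.
H2-Aa, chr17:34287824-34287973, minus strand: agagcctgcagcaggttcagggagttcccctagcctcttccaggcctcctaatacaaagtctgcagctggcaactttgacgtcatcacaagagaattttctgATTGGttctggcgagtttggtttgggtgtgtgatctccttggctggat
H2-Eb1, chr17:34305717-34305866, plus strand: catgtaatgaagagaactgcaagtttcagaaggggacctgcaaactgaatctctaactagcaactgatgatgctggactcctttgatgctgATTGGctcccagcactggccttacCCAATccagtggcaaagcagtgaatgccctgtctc
Cdk1, chr10:69352913-69353062, minus strand: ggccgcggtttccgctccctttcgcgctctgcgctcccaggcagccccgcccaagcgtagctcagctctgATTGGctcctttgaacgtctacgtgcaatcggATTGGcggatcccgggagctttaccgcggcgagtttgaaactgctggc
Kif11, chr19:37376232-37376381, plus strand: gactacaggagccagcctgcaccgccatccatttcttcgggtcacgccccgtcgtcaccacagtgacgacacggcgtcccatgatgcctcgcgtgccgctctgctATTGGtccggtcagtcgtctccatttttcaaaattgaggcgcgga
Top2a, chr11:99024190-99024339, minus strand: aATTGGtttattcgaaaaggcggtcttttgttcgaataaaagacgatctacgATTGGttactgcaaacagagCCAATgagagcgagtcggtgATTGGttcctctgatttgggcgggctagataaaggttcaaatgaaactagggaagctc
H2-Aa holds 1 such box in this stretch, H2-Eb1 2, Cdk1 2, Kif11 1 and Top2a 4. In H2-Aa, H2-Eb1 and Cdk1 one of them lies within CTGATTGG, and in Kif11 and Top2a none does.

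Over windows of 300 bases around the start, searched on both strands, CTGATTGG was found in 7 of the 13 tested MHC list members with a promoter in the table (53.8%), in 12 of 49 cell cycle members (24.5%) and in 4.32% of all 27025 promoters. ATTGG, which every CTGATTGG contains, was found in 11 of the 13 (84.6%), in 34 of the 49 (69.4%) and in 37.9% of all promoters. TTTGAA, the core of the cell cycle homology region, was found in 1 of the 13 (7.69%), in 21 of the 49 (42.9%) and in 18.1% of all. Among called members, ATTGG was found in 6 of 6 MHC genes and in 10 of 11 cell cycle genes. These are counts of letters, and no test was made of them.

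Interferon-stimulated genes, which many cells switch on in response to interferons, gave differences above 0 in 29 of 30 tested members, none of which passed the test. By limma 0 were called, 7 had an unadjusted p below 0.05, all in the direction of higher levels, and 15 were higher without overlap, against 15.2% of all genes. The median log2 change was 0.70. With slide as a block 4 members were called higher, as were 982 of all 33135 probes. Within the single slide the median log2 change was 0.99. Ifi27l2a gave 11.47, 11.39 and 11.54 at 3 W and 14.02, 12.75 and 13.53 at 5 W, and its difference of 1.96 ± 0.55 had an adjusted p of 0.0649. Bst2, the membrane protein that tethers viruses, differed by 1.32 (adjusted p = 0.0864), and Ifitm3, the brightest member, by 0.77 (adjusted p = 0.173).

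Markers of immune cells gave mixed values beside these genes. Of 12 macrophage markers, 11 differed by more than 0 and the median was 0.34. With slide as a block 5 were called higher, as were 982 of all 33135 probes. Without the block 1 was called higher, against 1.70% of all genes. The called marker was Lyz2, the lysozyme of myeloid cells, which gave 14.86, 14.94 and 14.95 at 3 W and 15.94, 16.03 and 15.98 at 5 W, a rise of 1.07 ± 0.24 (adjusted p = 0.02). The mean log2 signal of the 12 markers was 11.97 to 12.12 at 3 W and 12.42 to 12.45 at 5 W, without overlap, and 3 arrays against 3 cannot give an exact permutation p below 0.1. Adgre1, the F4/80 antigen, differed by -0.01 and Csf1r, the receptor for macrophage colony-stimulating factor, by 0.29. Of 9 tested lymphocyte markers 0 were called by limma and 2 had an unadjusted p below 0.05, and their mean signals of 8.11 to 8.22 at 3 W and 8.05 to 8.46 at 5 W overlapped. Among 6 microglial markers, P2ry12, a purine receptor of microglia and other tissue macrophages, rose by 1.04 (adjusted p = 0.0242), and Tmem119 differed by -0.27. The part of these cells in the rise of the MHC genes was not tested.

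The largest falls included several genes of glial and fat cells. Gpr17, a receptor of maturing oligodendrocyte precursors, gave 8.99, 9.52 and 8.96 at 3 W and 6.82, 6.59 and 6.04 at 5 W, a fall of 2.67 ± 0.51 on the log2 scale (log2 change -2.67, adjusted p = 0.00832). Gpr37, an orphan receptor of myelinating glia, gave 8.78, 8.75 and 8.44 and then 6.88, 6.59 and 6.83, a change of -1.89 ± 0.14 and the smallest adjusted p among the 20 genes of largest change, 1.92e-06. Neither gene overlapped between ages, as the rule for naming them required. Both differed less in the dorsal root, by -0.62 and -0.74. The 9 tested oligodendrocyte markers had 0 calls by limma, 2 with an unadjusted p below 0.05 and a median change of -0.10, and their mean log2 signal went from 12.40 to 12.51 at 3 W to 11.45 to 12.22 at 5 W; the part of oligodendrocytes in the falls was not tested. Ermn, a marker of myelinating oligodendrocytes, gave 14.23 and 15.14 on replicates 1 and 2 of 5 W but 9.88 on replicate 3, against 14.96 to 15.49 at 3 W.

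Cidea, a lipid droplet protein of brown fat, gave 10.19, 10.32 and 9.90 at 3 W and 7.62, 7.58 and 8.21 at 5 W, a change of -2.34 ± 0.44 (adjusted p = 0.00697). The 9 adipocyte markers had 0 calls by limma, 2 with an unadjusted p below 0.05 and a median change of -1.20. Of these markers 7 differed by less than 0 and 2 by more than 0, the highest by 0.74. Their mean signals were 7.60 to 7.96 at 3 W and 6.36 to 7.05 at 5 W. The part of fat cells in the fall of Cidea was not tested. Adiponectin (Adipoq) gave 6.90, 6.16 and 6.04 at 3 W and 4.92, 5.16 and 5.41 at 5 W, low on all arrays.

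H19, an imprinted long non-coding RNA of fetal growth, gave 12.92, 13.58 and 12.89 at 3 W and 11.38, 11.67 and 11.13 at 5 W, a change of -1.74 ± 0.32 (adjusted p = 0.0071), and both of its tested probes were called. Anxa8, a calcium-dependent membrane-binding annexin, changed by -1.61 (adjusted p = 0.00162), and Hoxd4, a homeobox transcription factor, by -1.67 (adjusted p = 0.0255). With slide as a block Hoxd4 changed by -0.89 and its call was lost (adjusted p = 0.158). Map3k10, a mixed lineage kinase, changed by -2.05 (adjusted p = 0.0417), with 5 W values of 9.56, 8.56 and 7.33. Its other 2 probes differed by 0.33 and 0.20 and were not called. Elmo1, an adaptor for engulfment and cell migration, changed by -1.93 on 1 of 5 probes, and the 5 W values of this probe, 4.50, 5.72 and 6.42, were also far apart. Its other 4 probes, of which 2 were brighter at 3 W, differed by 0.31, -0.53, -0.14 and 0.42, with 0 calls. For both called probes the range at 5 W was about as wide as the difference between ages, and both calls were lost with slide as a block (adjusted p = 0.0964 and 0.0837).

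Mup19, one of the urinary pheromone-binding proteins made mainly by liver, changed by -2.17 (adjusted p = 0.0406), and by -1.05 with slide as a block (adjusted p = 0.244). Mup21 and Mup17 were above background at 3 W and on no array at 5 W, and were at least 4.12-fold and 4.45-fold lower at 5 W. With slide as a block Mup21 was called and Mup17 was not (adjusted p = 0.0706). Gadl1, an enzyme that removes a carboxyl group from acidic amino acids, was at least 3.44-fold lower on the same terms. Stfa2, a stefin that inhibits cysteine proteases, changed by -2.54 (adjusted p = 0.0369), or 0.122 with slide as a block. Stfa1, above background on 1 of 3 arrays at 5 W, changed by -4.75 (adjusted p = 0.00219). With slide as a block Stfa1 changed by -4.69 (adjusted p = 0.00771). Of 9 Mup genes tested, 4 were called lower and 0 higher, and of 4 stefin A genes, 2 were called lower, against 1.23% of all genes. Mup1, Mup17, Mup21 and Stfa1, all among these calls, passed the filter only through the 3 W arrays, so the filter favoured a fall. Both are families of near-identical copies, so their probes cannot be taken as separate genes. These families were singled out after their values were seen.

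Cell cycle genes fell. Schwann cells and fibroblasts divide in the young root and leave the cycle as it matures, and the transcripts of mitosis and DNA replication are made almost only in dividing cells. Of 59 tested members, 12 were called lower and 0 higher, against 1.23% of all genes called lower. Their median log2 change was -0.52, and 44 of 59 were lower at 5 W without overlap, against 16.4% of all genes. This list, too, was chosen with earlier results of these data known.

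Among the regulators, Ccnb1, the cyclin that drives entry into mitosis, gave 7.82, 8.24 and 8.07 at 3 W and 7.0, 6.86 and 7.06 at 5 W, a change of -1.07 ± 0.20 (adjusted p = 0.008). Its partner kinase Cdk1 gave 7.31, 7.16 and 7.27 and then 6.17, 6.37 and 6.68, a change of -0.84 ± 0.19 (adjusted p = 0.0261). Ccna2, the cyclin of S and G2 phase, changed by -0.87. Neither cyclin nor kinase overlapped between ages.

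Among the effectors, Kif11, the motor that separates spindle poles, changed most, by -1.34 ± 0.22 (adjusted p = 0.00281), but it was above background on no 5 W array and can only be given as at least 1.5-fold lower. Rrm2, the ribonucleotide reductase subunit that supplies DNA precursors, gave 9.95, 10.34 and 9.96 at 3 W and 8.84, 8.72 and 9.49 at 5 W, a change of -1.07 ± 0.24 (adjusted p = 0.0198), or -0.76 with slide as a block (adjusted p = 0.109). Top2a, the topoisomerase that untangles replicated DNA and whose promoter is shown above, changed by -0.99 (adjusted p = 0.0304) and Mki67, the source of the Ki-67 antigen, by -0.93 (adjusted p = 0.0404). The remaining 5 called members were Bub1, Ube2c, Nuf2, Cenpf and Prc1, with changes from -1.0 to -0.84. Pcna, the sliding clamp of DNA polymerase and the brightest member, gave 12.97, 12.94 and 13.00 at 3 W and 13.00, 13.02 and 13.00 at 5 W, a difference of 0.04 (adjusted p = 0.894).

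**Figure D3:**
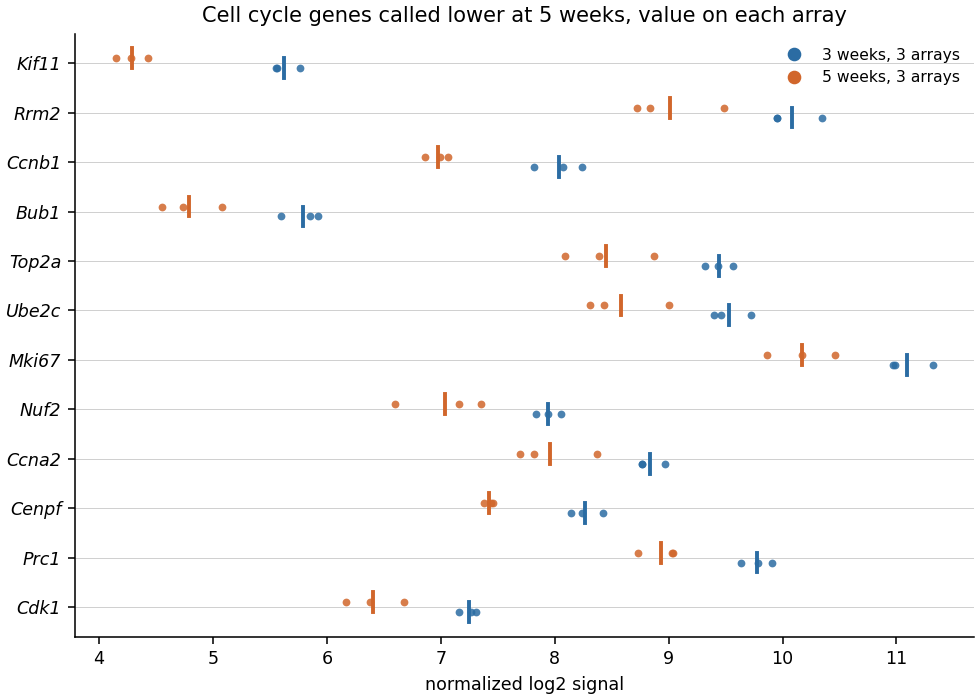
Normalized log2 signal on each ventral root array of the 12 cell cycle genes called lower at 5 W, with 3 W in blue, 5 W in orange and a bar at each mean of 3 arrays. The ages do not overlap for any of them, as for 858 of all 860 called probes. For Rrm2, Top2a and Cdk1 among others the highest of the 5 W values is that of replicate 3.

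The count of 12 depended on the arrays used. With slide as a block it was 6 and within the single slide 1, where the median change was -0.42 and -0.38. It was 2, 1 and 4 without EN_3W replicate 1, 2 or 3, 2 without EN_5W replicate 1 or 2, and 20 without EN_5W replicate 3. Histone genes whose symbols begin with Hist, most of which have mRNA made in S phase, were counted after their values were seen. Of these genes, 10 of 46 were called lower and 0 higher, against 1.23% of all genes called lower. Their median change was -0.56, or -0.32 with slide as a block and -0.29 within the single slide. Many of them are near-identical copies. The largest change, -2.63 for Hist1h1d, rested on 5 W values of 6.31, 5.63 and 3.77, of which 1 was above background. Hist1h1d and Hist1h2ai, both among the calls, passed the filter only through the 3 W arrays, so the filter favoured their fall.

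**Figure D4:**
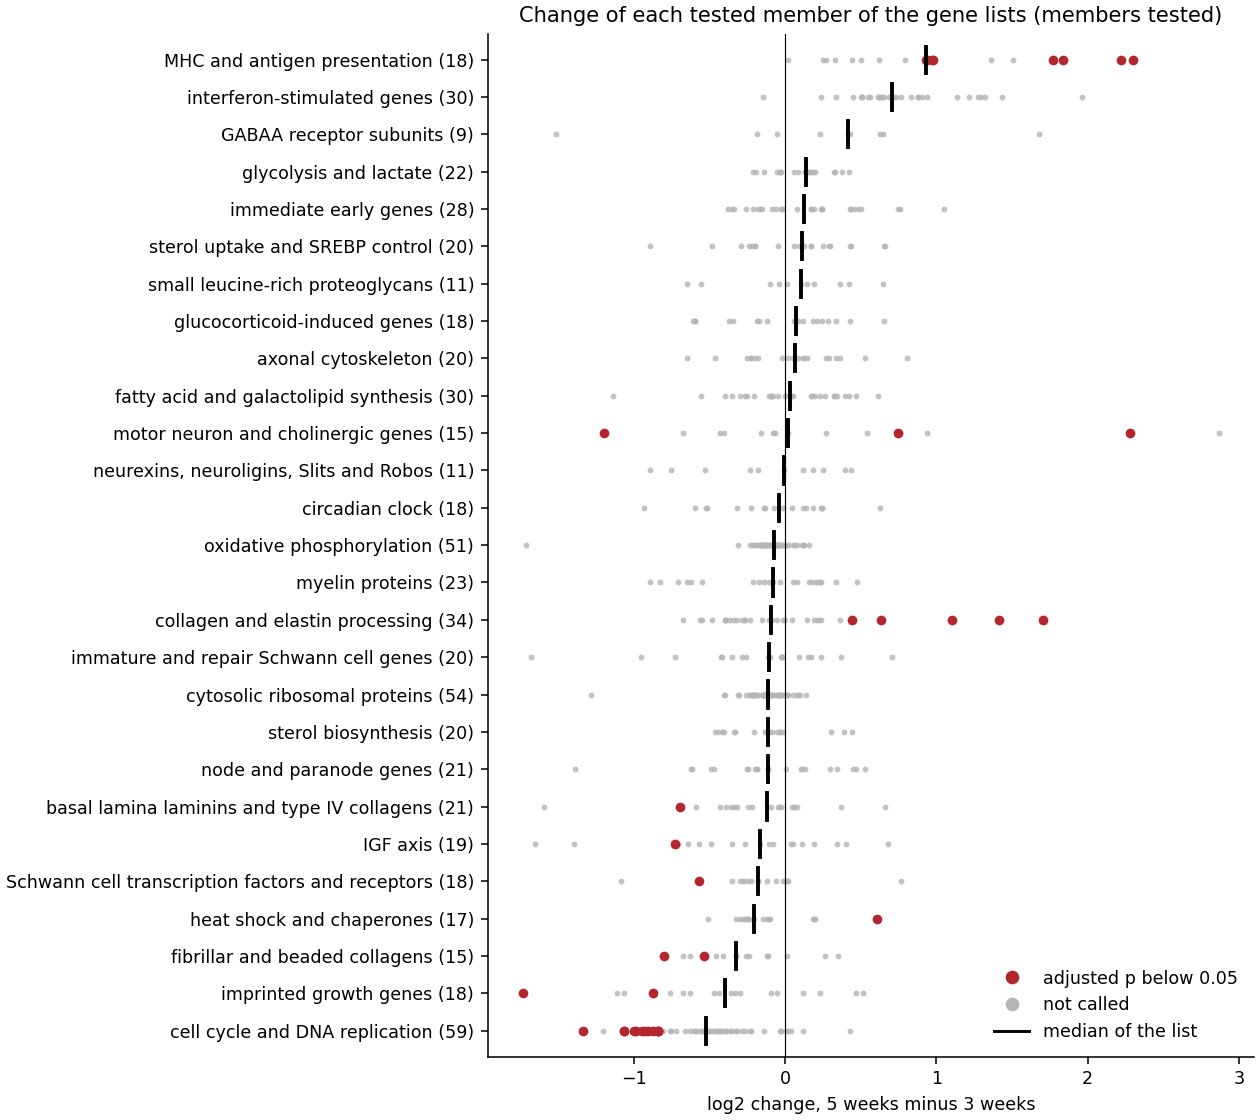
Log2 change from 3 W to 5 W of each tested member of the 27 gene lists, 1 probe per gene, with called members (adjusted p below 0.05) in red, the others in grey and a bar at each median. The MHC list at the top has 8 called members and a median of 0.93, and the cell cycle list at the bottom has 12 and a median of -0.52.

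Genes of the extracellular matrix moved in both directions. Among 34 genes that process or assemble collagen and elastic fibres, 5 were called higher and 0 lower, against 1.70% and 1.23% of all genes. Their median change was -0.10. Mfap5, a glycoprotein of elastic microfibrils, gave 14.82, 14.53 and 14.70 at 3 W and 16.25, 16.65 and 16.25 at 5 W, a rise of 1.70 ± 0.17 (adjusted p = 4.31e-05). Fbln5, which helps to assemble elastic fibres, gave 13.76, 13.44 and 13.75 and then 14.73, 14.73 and 14.80, a rise of 1.1 ± 0.12 (adjusted p = 6.75e-05). P3h2, a prolyl hydroxylase of collagen, rose by 1.42 (adjusted p = 0.00149). P4ha2, another prolyl hydroxylase, rose by 0.63 and Pcolce, an enhancer of procollagen cleavage, by 0.44. Sparc, the brightest of these genes, differed by 0.19 (adjusted p = 0.272).

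The collagens themselves gave fewer calls. Of 15 fibrillar and beaded collagens, 2 were called lower and 0 higher, against 1.23% and 1.70% of all genes. The median change was -0.32. Col6a1, a chain of beaded type VI collagen, gave 14.69, 14.75 and 14.87 at 3 W and 14.34, 14.12 and 14.23 at 5 W, a change of -0.54 ± 0.13 (adjusted p = 0.0333, or 0.0768 with slide as a block), and Col5a1, a minor fibrillar collagen that helps to set fibril diameter, changed by -0.80 (adjusted p = 0.048). Col1a2, a chain of the main fibrillar collagen, differed by -0.11 (adjusted p = 0.751). Among 21 laminins and type IV collagens of the basal lamina, 1 was called lower and 0 higher, against 1.23% and 1.70% of all genes. The called gene was Lama4, which changed by -0.70 (adjusted p = 0.0307) from 13.95, 13.90 and 13.93 to 13.45, 13.07 and 13.18 on 1 of its 3 probes. It was not called with slide as a block (adjusted p = 0.0573). Lamb1, the brightest, differed by -0.39 (adjusted p = 0.124). None of 11 small leucine-rich proteoglycans was called by limma, and 3 had an unadjusted p below 0.05.

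Among growth genes, the few calls were lower. Of 18 imprinted growth genes, 2 were called lower and 0 higher, against 1.23% and 1.70% of all genes. The median change was -0.40. Beside H19, these calls included Slc38a4, an amino acid transporter, which gave 7.48, 7.52 and 7.63 at 3 W and 6.50, 6.37 and 7.15 at 5 W, a change of -0.88 (adjusted p = 0.0456), or -0.47 with slide as a block (adjusted p = 0.232). Peg3, a paternally expressed zinc finger gene, gave 10.37, 10.49 and 10.47 and then 9.24, 9.40 and 9.35, and its difference of -1.11 ± 0.30 had an adjusted p of 0.0529. Of 19 genes of the insulin-like growth factor axis, 1 was called lower and 0 higher, against 1.23% and 1.70% of all genes. The called gene was Igfbp3, a binding protein of these factors, which changed by -0.73 ± 0.16 (adjusted p = 0.0178, or 0.0996 with slide as a block).

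Myelin and lipid genes gave no calls. Of 23 myelin protein genes 0 were called by limma, 6 had an unadjusted p below 0.05, and the median change was -0.08. Pmp22, a tetraspan protein of compact myelin and the brightest, gave 18.55, 18.51 and 18.51 at 3 W and 18.33, 18.45 and 18.55 at 5 W. The ages overlapped, near the upper end of the array's range. Cnp, an enzyme of uncompacted myelin, differed by -0.55 (adjusted p = 0.0635). Sterol biosynthesis, with 20 genes tested, sterol uptake and its control by SREBP, with 20, and fatty acid and galactolipid synthesis, with 30, had 0 calls each and medians of -0.11, 0.11 and 0.03, and 3, 5 and 6 members with an unadjusted p below 0.05. Hmgcs1, an early enzyme of sterol synthesis, differed by -0.33 (adjusted p = 0.315), and Scd2, a desaturase, by -0.30 (adjusted p = 0.124).

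Of 18 Schwann cell transcription factors and receptors, 1 was called, and it was lower, against 1.23% of all genes called lower. Erbb3, the receptor through which axonal neuregulin acts on Schwann cells, gave 13.17, 13.28 and 13.14 at 3 W and 12.49, 12.69 and 12.70 at 5 W, a change of -0.57 ± 0.12 (adjusted p = 0.018). Pou3f1, a factor of promyelinating cells, gave 12.67, 12.84 and 13.00 and then 12.56, 11.18 and 11.50, and its difference of -1.09 did not pass (adjusted p = 0.154). Egr2, which drives the myelin programme, differed by -0.35 (adjusted p = 0.304). Of 20 genes of immature and repair Schwann cells 0 were called and 4 had an unadjusted p below 0.05. Of 21 genes of the node and paranode, where the sheath ends, 0 were called and 1 had an unadjusted p below 0.05.

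Axonal and synaptic genes gave few calls. Among 15 motor neuron and cholinergic genes, 2 were called higher, Spp1 and Tns1, and 1 lower, Vwa5b2. Of all genes 1.70% were called higher and 1.23% lower. Tns1, which links integrins to actin, gave 15.39, 15.18 and 15.55 at 3 W and 15.77, 16.40 and 16.19 at 5 W. This was a rise of 0.74 ± 0.18 (adjusted p = 0.0362) on 1 of 4 probes. The others were not called, and the smallest change among the 4 was 0.23. Vwa5b2 changed by -1.20 ± 0.20 (adjusted p = 0.00341). Uts2, the peptide urotensin 2 of motor neurons, gave 8.01, 7.62 and 7.99 at 3 W and 10.69, 10.50 and 11.04 at 5 W, without overlap. Its difference of 2.87 ± 0.80 did not pass (adjusted p = 0.0613). With slide as a block 2 members of this list were called higher, Spp1 not among them, and 1 lower. Chat, the enzyme that makes acetylcholine, gave 9.05, 8.82 and 8.85 and then 7.63, 8.55 and 9.24, so that the ages overlapped. Of 20 axonal cytoskeleton genes 0 were called, and none had an unadjusted p below 0.05.

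A further set held genes chosen for PCR. Of these 9 genes, 7 could be tested, and on the brightest probe of each 0 were called by limma, 3 with an unadjusted p below 0.05. Slit2, a guidance cue, differed by 0.43 (adjusted p = 0.138), and Ncam1, a cell adhesion molecule, by -0.42 (adjusted p = 0.103), with 10.90, 10.87 and 10.81 at 3 W and 10.29, 10.24 and 10.78 at 5 W. Of 4 Ncam1 probes 1 was called, a dimmer one that rose by 0.46 (adjusted p = 0.0347), so the probes of this gene did not move one way. Nlgn1, a postsynaptic adhesion protein, differed by -0.53, Gabrb2, a GABAA receptor subunit, by 0.63, and Unc13c, a factor of vesicle priming, by -0.22. Npy was not above background on all arrays of either age. Of 9 GABAA receptor subunits and 11 neurexins, neuroligins, Slits and Robos, 0 were called in each, with 2 and 4 at an unadjusted p below 0.05.

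The other lists gave 1 call among them. Of 17 heat shock and chaperone genes, 1 was called higher, against 1.70% of all genes, and the median change was -0.21. The called gene was Hspa4l, which rose by 0.61 (adjusted p = 0.0457, or 0.158 with slide as a block) on 1 of 4 probes. Circadian clock genes, glucocorticoid-induced genes and immediate early genes, which respond to the time and manner of killing, had 0 calls by limma and 2, 2 and 2 members with an unadjusted p below 0.05. Glycolysis, ribosomal protein and oxidative phosphorylation genes had 0 calls and medians of 0.14, -0.11 and -0.07, with 0, 3 and 2 at an unadjusted p below 0.05. Markers of the meninges, of which 10 were tested with a median of -0.33, of perineurium, with 8 and -0.17, and of skeletal muscle, with 13 and -0.56, had 0 calls by limma and 2, 0 and 0 members with an unadjusted p below 0.05. The muscle markers varied within an age: Acta1, skeletal actin, gave 12.49, 12.39 and 11.76 at 3 W and 11.68, 9.75 and 10.61 at 5 W.

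The same ages were then compared in the dorsal root, whose arrays are other samples but shared slides with the ventral root arrays of the same number. There 1306 of the same 33135 probes (3.94%) were called. Of the 860 ventral root calls, 845 had the same sign in the dorsal root, as did 74.8% of all tested probes, and 471 were called in both, which is 54.8% of the ventral and 36.1% of the dorsal calls. No probe differed in its change between the roots at an adjusted p below 0.05 (0.00%; the smallest adjusted p was 0.564), and 617 (1.86%) did at an unadjusted p below 0.05. Within the single slide that held both ages, 463 probes differed.

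Side by side, Plk5 changed by 3.12 in the ventral and 4.48 in the dorsal root, Mchr1 by 3.19 and 3.12, and Cd74 by 2.22 and 2.25. The MHC list had a median of 0.93 in the ventral and 1.07 in the dorsal root, and the cell cycle list of -0.52 and -0.81. The least alike of the 20 genes were Gpr17, at -2.67 and -0.62, and Mup19, at -2.17 and -0.37, followed by Map3k10, at -2.05 and -0.39. None of these differences between the roots passed the test.

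**Figure D5:**
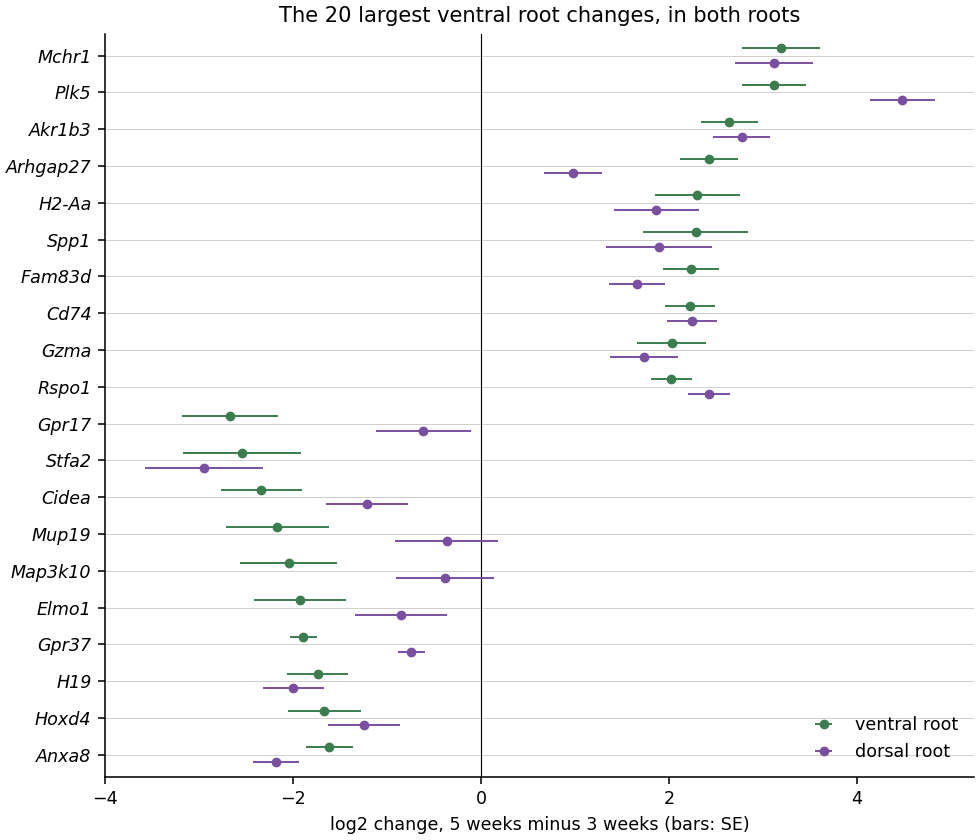
Log2 change from 3 W to 5 W, with its SE, of the 20 genes of largest ventral root change, in the ventral root (green) and the dorsal root (purple), 3 arrays per age and root. All 20 lie on the same side of 0 in both roots; Cd74 is at 2.22 and 2.25, and Gpr17 at -2.67 and -0.62.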

How the data were processed

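Gene expression was measured on 24 one-colour (Cy3) Agilent mouse arrays, 3 in each of 8 groups, grouped by the root and age on their labels. The authors extracted spot intensities with Agilent Feature Extraction 10.7.1.1, deposited these intensities with marks for spots well above background, and deposited a table of log2 values, normalized with the quantile method in GeneSpring. Each column of that table correlated best with its own array's intensities.

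Values of the log2 table were tested with limma 3.58.1 in R 4.3.3. All 24 arrays were fitted as 8 group means, the contrast was EN at 5 W minus EN at 3 W, and p-values were adjusted by Benjamini-Hochberg over the 33135 probes. A probe was above background on an array if at least as many of its spots were marked so as were not. Intensities served for this filter and for the alternatives. Gene names are those of the array's design, and probe positions are mm9. Lists use each gene's brightest tested probe. The spread was estimated over all 24 arrays (16 residual degrees of freedom), and the 3 arrays per age limit the precision.

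Genes were named by rule: the 10 largest called rises and falls above background on all 6 arrays without overlap, up to 3 each way above background at one age, the 3 largest called changes and the brightest member of each list, and the 9 PCR genes. Some further members are named to describe a list and were chosen after their values were seen. Members and lists were chosen with earlier results of these data known. On simulated data with the same groups the fit recovered 41 of 100 probes changed by 1 on the log2 scale and 84 of 100 changed by 2. The simulated noise was independent between arrays and equally wide in every group. It left out the slides and the wider spread at 5 W, so recovery in the real arrays may differ. Alternatives were other signals and scalings, filters, slide, scan batch and replicate blocks, array weights and leaving out single arrays. Kept out were control spots and outlier spots. Some genes are not reported here by name.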

Additional observations from a re-analysis of the deposited data

How the results depend on the processing

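Of 43 named genes that were called, 39 had a value with 1 probe per gene and 36 with only probes above background on all EN arrays of both ages. None changed sign under the alternatives that gave it a value, which says little where the ages do not overlap and the same arrays are used. The call was lost for 26 within the single slide, 21 with the 6 compared arrays alone, 13 with slide as a block and 13 with scan batch as a block. The number of called probes was 211 (148 higher, 63 lower) with the 6 compared arrays fitted alone, 1914 (982, 932) with slide as a block, 1775 (854, 921) with scan batch as a block, 3236 (1682, 1554) with array weights and 544 (308 higher) with 1 probe per gene; within the single slide 268 were higher and 726 lower. The unadjusted rule gave 570 lower. Calls higher at 5 W made up 64.0% of the total, 51.3% with the slide block, 48.1% with the scan batch block, 52.0% with array weights and 27.0% within the slide; the cause was not tested. Without single arrays the count ranged from 191 to 1515, with 142 to 918 higher and 49 to 597 lower. Without AN_3W replicate 3, which enters only the spread, 471 were lower. The difference between the roots had 1 call with no filter on dim probes, 463 within the slide, and 0 to 1 without single arrays.

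Of the MHC genes, 3 were called with the 6 arrays alone. The 12 cell cycle calls became 6 with no filter on dim probes, 3 with the 6 arrays alone, 6 with the slide block, 6 with the scan batch block, 1 within the slide and 33 with array weights, and 1 to 20 without single arrays.

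Same-numbered arrays of the ages did not deviate together (correlations of 0.179, -0.136 and -0.0387), so the numbers do not pair the samples; the replicate block gave 1175 called probes. Genes not above background at one age, such as Kif11, Mup17 and Mup21, are known only as bounds.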

Other observations

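The following called genes are members of no list and were singled out after their values were seen, so they stand for no group. Folr2, a folate receptor of tissue-resident macrophages, gave 8.29, 8.11 and 8.28 at 3 W and 10.33, 9.58 and 9.53 at 5 W, a rise of 1.58 (adjusted p = 0.0165 by limma, or 0.0513 with slide as a block). Siglec1, the sialoadhesin of macrophages, rose by 1.78 (adjusted p = 0.0427), and Ccl8, a chemokine above background on 1 of 3 arrays at 3 W, by 2.24 (adjusted p = 0.022, or 0.13 with slide as a block). Of the 12 macrophage markers in the list, 1 was called higher, against 1.70% of all genes. Relb, a subunit of NF-kappaB, gave 6.91, 6.45 and 6.70 and then 8.34, 8.08 and 8.25, a rise of 1.54 (adjusted p = 0.00379).

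Cldn11, the tight junction protein of oligodendrocyte myelin, gave 12.47, 12.56 and 12.48 at 3 W and 11.70, 11.85 and 10.15 at 5 W, a change of -1.27 (adjusted p = 0.0263), beside -0.24 in the dorsal root. Ncan, the proteoglycan neurocan, changed by -1.50 (adjusted p = 0.0451). The secreted signalling antagonists Frzb, which binds Wnt proteins, and Chrdl1, which binds bone morphogenetic proteins, rose by 0.96 and 1.42. Cd24a, a surface glycoprotein of immature cells, changed by -1.30, a call that was lost with slide as a block, and Sox4, a transcription factor of immature cells, by -0.83.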
